A study of Homo sapiens with 11 samples.

Results

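The 9 genes described here encode cell-surface heparan sulfate proteoglycans of the glypican and syndecan families, measured in human stem cell-derived cardiomyocytes: GPC1, GPC2, GPC3, GPC4 and GPC6, and SDC1, SDC2, SDC3 and SDC4. They were taken by name, with no measured value in the rule, and are 9 of the 19990 genes in the count table. Earlier results of these data were known when the 9 genes were chosen. A further glypican gene of the table, GPC5, is not among them and held 0 to 76 counts per well. WTC11, the starting material, is an established line of human induced pluripotent stem cells, used at passage 63, and all wells belonged to a single differentiation driven by CHIR99021, an inhibitor of the kinase GSK3, and then IWP2, an inhibitor of Wnt secretion. Wells were kept in RPMI1640 with B27 and insulin and were lysed on Day 30 (4 wells), Day 60 (3 wells) or Day 113 (4 wells), for a comparison of gene expression along long-term culture. No sorting of cardiomyocytes is described in the labels, so each library is bulk poly(A) RNA of everything in a well. Each library is a different well of the one differentiation, so p-values measure the spread between wells and not between differentiations, and time in culture cannot be told apart from collection occasion.

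Glypicans and syndecans are core proteins that carry heparan sulfate, a long sulfated sugar chain, at the cell surface. Glypicans are tied to the outer leaflet of the membrane by a lipid (GPI) anchor, which the enzyme NOTUM can cut, whereas syndecans cross the membrane and hold a short cytoplasmic tail that binds PDZ proteins and protein kinase C. Their chains bind fibroblast growth factors, Wnts, Hedgehogs and other ligands and present them to receptors, and in muscle and heart syndecans also couple the matrix to the cytoskeleton. GPC3 and GPC4 lie side by side on the X chromosome (chrX:133535745-133985895 and chrX:133300103-133415490, both on the minus strand, GRCh38).

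Libraries held 24.1 to 34.5 M gene counts (M, 1e+06 counts), and values below are CPM (counts per 1 M) on library sizes scaled by the trimmed mean of M-values, whose factors ran from 0.966 to 1.04. As a check for a library deposited more than once, wells of a day were compared with counting noise (chi-square over genes divided by its degrees of freedom, 11.4 to 84.0), and no pair was a duplicate. The 9 genes were well covered, from 58 counts for GPC2 in a Day 113 well to 14686 for GPC1 in a Day 30 well. Only GPC6 shares exon sequence with another annotated gene, the antisense RNA AL354811.1 over 7.36% of its exon bases, and whether the counting used strand is not given in the sources used here.

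Between Day 30 and Day 113, 8 of the 9 genes fell and SDC2 did not change detectably. GPC3, a glypican known as a modulator of Hedgehog and Wnt signals in the embryo, fell most, by 3.74 ± 0.23 on the log2 scale (SE), from 99.7 ± 32.2 to 7.46 ± 1.10 CPM (SD, n = 4 and 4). Across all genes, 34.5% passed the test in this comparison (adjusted p under 0.05), 17.2% as lower and 17.3% as higher. The median log2 change of the 9 genes was -1.18, beside -0.02 over all genes, and the 5 glypicans had a median of -1.50 where the 4 syndecans had -0.61. For 8 of the 9 genes every Day 113 well lay below every Day 30 well, a pattern seen in 18.0% of all genes. Because the 9 genes were chosen with earlier results known, their counts beside the all-gene shares are descriptions and not tests. In bulk RNA, fewer cells of a type and less RNA per cell cannot be told apart.

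**Figure D1:**
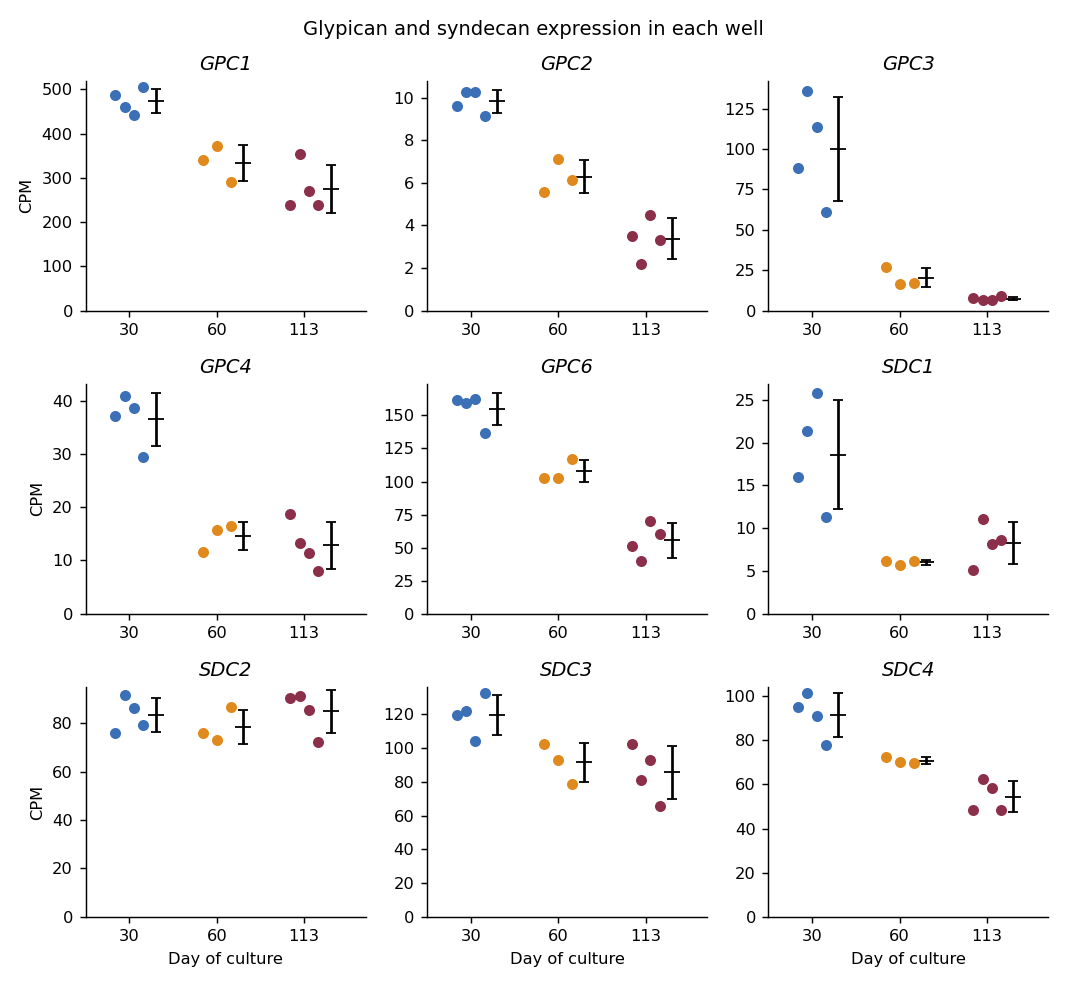
CPM of each of the 9 genes in each well (points) by day of culture (30, 60 and 113), with the day mean ± SD in black beside them; each panel has its own linear axis from 0. GPC3 goes from 61.2 to 136 CPM at Day 30 to 6.53 to 8.75 CPM at Day 113, while the SDC2 wells of the 3 days overlap.

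The 2 intervals were also tested apart. From Day 30 to Day 60, 5 of 9 genes fell (GPC1, GPC3, GPC4, GPC6 and SDC1) and none rose, against 10.3% of all genes called, 5.91% lower and 4.39% higher. From Day 60 to Day 113, 4 of 9 fell (GPC2, GPC3, GPC6 and SDC4) and none rose, against 24.0% of all genes called, 11.1% lower and 12.9% higher. GPC3 and GPC6 were called lower in both intervals. Wells of the later day lay wholly below those of the earlier day for 8 genes in the first interval, all but SDC2, and for 4 in the second (GPC2, GPC3, GPC6 and SDC4), against 14.1% and 14.4% of all genes. The first count rests on calls near the threshold: it was 8 in a fit of the 2 days alone and ran from 3 to 7 when single wells were left out, whereas the second ran from 3 to 5. The count of 8 for the whole course was 8 in each of the 21 alternatives run. The alternative without a gene filter repeats the main fit, because the filter removed 0 genes, so its agreement was fixed in advance.

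**Figure D2:**
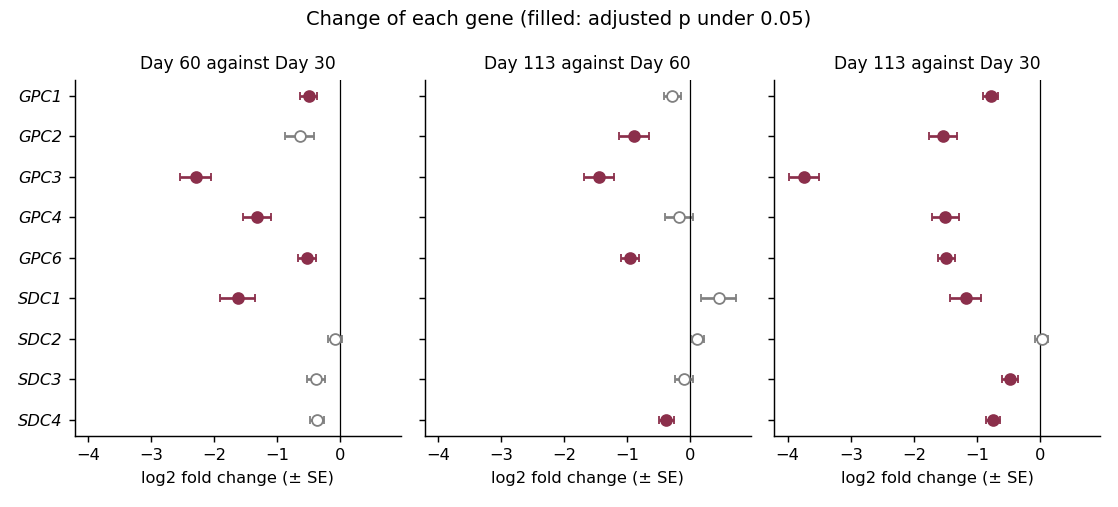
Log2 fold change of each gene (points, bars ± SE) in the 3 comparisons, filled where the adjusted p is under 0.05. For Day 113 against Day 30, every gene but SDC2 is filled and lies left of 0, and GPC3 lies farthest left at -3.74.

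Start-site sequences are shown for 4 of the genes that fell over the course, 2 from each family, since they moved in the same direction: GPC2, GPC4, SDC1 and SDC4. RefSeq windows (GRCh38.p14) of the 250 bases before the annotated start were matched for 7 of the 9 genes, leaving GPC3 and SDC2 unmatched, and each stretch printed lies outside annotated exons. All 4 genes lie on the minus strand, so each sequence reads 5′ to 3′ toward its gene. Capitals mark GC boxes (GGGCGG or its reverse complement CCGCCC) and CCAAT boxes (CCAAT or ATTGG), searched on both strands as exact letters; a run of 12 capitals in SDC4 is a pair of adjoining GC boxes. The stretches are GPC2 chr7:100177382-100177562, GPC4 chrX:133415491-133415739, SDC1 chr2:20225476-20225725 and SDC4 chr20:45348425-45348674.
GPC2: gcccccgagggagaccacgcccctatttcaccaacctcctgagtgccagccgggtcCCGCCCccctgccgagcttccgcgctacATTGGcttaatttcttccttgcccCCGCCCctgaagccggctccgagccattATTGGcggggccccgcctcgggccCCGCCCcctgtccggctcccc
GPC4: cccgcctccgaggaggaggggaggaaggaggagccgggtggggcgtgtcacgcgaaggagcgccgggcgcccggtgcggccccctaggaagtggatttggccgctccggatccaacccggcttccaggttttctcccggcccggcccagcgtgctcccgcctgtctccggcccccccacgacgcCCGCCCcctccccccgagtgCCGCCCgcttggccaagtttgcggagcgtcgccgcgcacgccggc
SDC1: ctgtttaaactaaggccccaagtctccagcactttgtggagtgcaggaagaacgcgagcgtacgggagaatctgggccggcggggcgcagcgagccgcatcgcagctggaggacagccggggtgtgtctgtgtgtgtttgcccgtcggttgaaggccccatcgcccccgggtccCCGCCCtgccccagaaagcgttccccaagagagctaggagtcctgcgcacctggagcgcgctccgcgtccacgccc
SDC4: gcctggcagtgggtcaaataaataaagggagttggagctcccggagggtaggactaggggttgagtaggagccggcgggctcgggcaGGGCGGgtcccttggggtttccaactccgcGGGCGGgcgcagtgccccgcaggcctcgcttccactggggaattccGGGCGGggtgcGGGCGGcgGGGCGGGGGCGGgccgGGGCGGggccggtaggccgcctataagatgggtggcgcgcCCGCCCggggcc

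The SDC4 stretch holds 8 GC boxes, the GPC2 stretch 3 with 2 CCAAT boxes, the GPC4 stretch 2 and the SDC1 stretch 1. Of the windows not printed, SDC3 holds 5 GC boxes and GPC1 holds 4, while that of GPC6 holds none and is the only member window with TATAAA. Among 35116 RefSeq windows of the same length, 42.6% hold a GC box, 32.0% a CCAAT box, 10.7% TATAAA and 6.34% the E-box CACGTG, which no member window holds. Base composition also sets GPC6 apart among these windows: 37.6% of its bases are G or C, against 66.4% to 84.0% in the others and a median of 58.0% over all windows. These are matches of letters in a window, and no factor binding was measured here.

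GPC1, the glypican of adult muscle and nerve and a co-receptor for fibroblast growth factors, had the highest level of the 9 per length of exon on every day. Its Day 30 wells (1 to 4) stood at 488, 460.3, 442 and 505 CPM, its Day 60 wells (1 to 3) at 339, 373 and 291 CPM, and its Day 113 wells (1 to 4) at 238, 354, 269 and 238 CPM. All later wells lay below all Day 30 wells, and Day 113 well 2 lay inside the Day 60 range. GPC1 fell 1.72-fold over the course (log2 change -0.79 ± 0.12, adjusted p = 1.61e-04), with -0.50 ± 0.14 by Day 60 (adjusted p = 0.0251) and -0.28 ± 0.13 after it (adjusted p = 0.141). Its early call is lost without any one of 5 wells (Day 30 wells 1, 2 and 4, and Day 60 wells 1 and 3), with adjusted p from 0.0606 to 0.156. After Day 60, leaving out Day 113 well 2 brings an adjusted p of 0.0064.

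GPC3 is known for its role in body and organ growth, where its loss in humans causes an overgrowth syndrome. Its Day 30 wells held 88.2, 136, 114 and 61.2 CPM, its Day 60 wells 27.2, 16.7 and 17.1 CPM, and its Day 113 wells 8.00, 6.56, 6.53 and 8.75 CPM. The 3 days kept separate ranges, and the Day 30 wells differed by more than 2-fold among themselves, with well 2 highest and well 4 lowest. GPC3 fell 4.90-fold by Day 60 (-2.29 ± 0.24, adjusted p = 2.51e-05) and a further 2.73-fold by Day 113 (-1.45 ± 0.23, adjusted p = 4.29e-04), or 13.4-fold in all (adjusted p = 1.72e-08). The log2 changes of the 2 intervals differed by 0.84, which the test of that difference did not call (adjusted p = 0.231).

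GPC4, the X-linked neighbour of GPC3 and a modulator of Wnt and growth factor signals, changed early. CPM at Day 30 was 37.2, 40.8, 38.6 and 29.5, at Day 60 it was 11.6, 15.8 and 16.5, and at Day 113 it was 18.7, 13.3, 11.5 and 8.02. Day 30 wells lay above all others, and the Day 113 wells surrounded the Day 60 range. By Day 60 GPC4 fell by 1.32 ± 0.23 on the log2 scale (adjusted p = 0.00156), and the change after it was -0.18 ± 0.22 (adjusted p = 0.619). The difference of 1.14 between the intervals did not pass its test (adjusted p = 0.0895).

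GPC6, expressed widely in mesenchymal tissues of the embryo, fell in both intervals. Its wells held 161, 159.6, 162 and 137 CPM at Day 30, 103, 103 and 117 CPM at Day 60, and 51.6, 39.7, 70.3 and 60.0 CPM at Day 113. No ranges overlapped, and Day 30 well 4 stood below the other Day 30 wells, which lay close together. The log2 change was -0.53 ± 0.15 by Day 60 (adjusted p = 0.0319) and -0.96 ± 0.15 after it (adjusted p = 2.77e-04), 2.80-fold lower over the course (adjusted p = 9.65e-07). Without any one of 6 wells (Day 30 wells 1 to 3 and each Day 60 well) the early call is lost, with adjusted p from 0.0729 to 0.143, as it is with upper-quartile scaling (0.0551). Changes in the 2 intervals differed by -0.43 (adjusted p = 0.331).

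GPC2, a glypican of developing neurons, had the lowest mean per-length level of the 5 glypicans on each day. It stood at 9.62, 10.3, 10.3 and 9.14 CPM at Day 30, 5.59, 7.11 and 6.15 CPM at Day 60, and 3.49, 2.17, 4.51 and 3.33 CPM at Day 113. Its day ranges did not overlap. GPC2 fell 2.90-fold in all (-1.54 ± 0.22, adjusted p = 6.09e-05). The early change of -0.65 ± 0.23 missed the threshold (adjusted p = 0.0951), and the later one of -0.89 ± 0.23 passed it (adjusted p = 0.0111). GPC2 passes for the early step without Day 113 well 2 (adjusted p = 0.0378), with limma-voom (0.0465) and in a fit of the 2 days alone (0.0267).

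SDC1, a syndecan of epithelia and plasma cells, was the only syndecan called lower by Day 60. Its Day 30 wells held 16.0, 21.3, 25.8 and 11.3 CPM, its Day 60 wells 6.16, 5.67 and 6.21 CPM, and its Day 113 wells 5.14, 11.1, 8.16 and 8.58 CPM. Every Day 30 well lay above every later well, by a small margin over Day 113 well 2, and the Day 113 range took in that of Day 60. SDC1 fell 3.09-fold by Day 60 (-1.63 ± 0.28, adjusted p = 0.00152) and the change after it was 0.45 ± 0.27 (adjusted p = 0.261), leaving it 2.26-fold lower at Day 113 than at Day 30 (adjusted p = 0.00164). SDC1 alone of the 9 genes passed the test that the later change differs from the earlier one, by 2.08 ± 0.50 on the log2 scale (adjusted p = 0.0180), a test that called 9.34% of all genes, 4.97% with a difference above 0. That call is lost with any one Day 60 well left out, with adjusted p from 0.0656 to 0.0798, and with limma-voom (adjusted p = 0.0589).

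SDC4, the syndecan of focal adhesions and of the Z-disc region in cardiomyocytes, fell in small steps. Its wells held 95.2, 101, 91.0 and 77.7 CPM at Day 30, 72.4, 70.1 and 69.6 CPM at Day 60, and 48.3, 62.6, 58.3 and 48.6 CPM at Day 113. The 3 ranges did not overlap. SDC4 fell 1.68-fold in all (-0.75 ± 0.11, adjusted p = 6.69e-05). The step to Day 60 was -0.37 ± 0.12 (adjusted p = 0.0544) and the step after it -0.38 ± 0.11 (adjusted p = 0.0257), so the calls differ while the sizes are near equal. Leaving out Day 60 well 1 or 2, or Day 113 well 1 or 4, moves the later step to an adjusted p of 0.0582 to 0.0693. The early step passes without Day 30 well 4, Day 113 well 1 or Day 113 well 2 (0.0254 to 0.0407), with DESeq2 (0.0370) or robust dispersion (0.0488), and in a fit of the 2 days alone (0.0211).

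SDC3, the large syndecan of nerve and muscle, had the smallest log2 change of the 8 genes called over the whole course. It stood at 119, 122, 104 and 133 CPM at Day 30, 102, 93.2 and 79.0 CPM at Day 60, and 102, 81.0, 93.1 and 65.9 CPM at Day 113. Day 30 wells lay above all later wells, by a narrow gap, and the Day 60 and Day 113 wells overlapped. SDC3 fell 1.39-fold in all (-0.48 ± 0.13, adjusted p = 0.00853), while the early step of -0.39 ± 0.14 (adjusted p = 0.0976) and the later one of -0.09 ± 0.14 (adjusted p = 0.678) were not called. In a fit of the 2 days alone the early step of SDC3 passed (adjusted p = 0.0291).

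SDC2, a syndecan of mesenchymal cells, was the 1 gene of the 9 with no call in any comparison. Its wells held 76.2, 91.9, 86.4 and 79.6 CPM at Day 30, 76.1, 73.2 and 86.6 CPM at Day 60, and 90.6, 91.5, 85.7 and 72.4 CPM at Day 113. The ranges of all days overlapped. The log2 change from Day 30 to Day 113 was 0.03 ± 0.10, with a 95% interval of -0.19 to 0.24 (adjusted p = 0.870), and its sign turned when single wells were left out. The test for any change over the 3 days gave an adjusted p of 0.681 for SDC2 and called the other 8 genes, against 37.1% of all genes.

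The make-up of the 9-gene pool was compared per length, as CPM per kilobase of exon (union of exons of the GENCODE release 29 basic annotation). GPC1 led on every day, at 119 ± 6.94, 83.6 and 68.8 ± 13.7 CPM per kb at Days 30, 60 and 113, and held 43.9% ± 4.62, 47.5% ± 3.54 and 48.3% ± 4.25 of the summed level (SD). At Day 30 it was followed by GPC3 (37.8 ± 12.2 CPM per kb) and SDC4 (34.9 ± 3.83), whose wells overlapped, then by GPC6 (24.0), SDC2 (21.0) and SDC3 (17.8), each overlapping the next. GPC4 (7.37), SDC1 (5.61) and GPC2 (3.88) came last, again each overlapping the next. GPC3 therefore went from the second place to the sixth, and its share of the pool from 13.8% at Day 30 to 4.38% at Day 60 and 2.04% at Day 113.

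By Day 113 SDC2 (21.4 CPM per kb, 15.1% of the pool) and SDC4 (20.8, 14.7%) followed GPC1, and their wells overlapped. SDC3 (12.8) and GPC6 (8.56) came next with overlapping wells, and GPC3 (2.83), GPC4 (2.60), SDC1 (2.48) and GPC2 (1.33) were lowest, each overlapping the next in order. Summed over 5 genes, glypicans held 192 ± 9.57 CPM per kb at Day 30, 113 ± 9.35 at Day 60 and 84.1 ± 12.0 at Day 113. The 4 syndecans held 79.3 ± 5.58, 62.3 ± 1.56 and 57.4 ± 5.78 CPM per kb. The glypican share was 70.2% to 71.2% in the Day 30 wells, 62.4% to 66.6% in the Day 60 wells and 56.6% to 61.8% in the Day 113 wells, with no overlap between days. The level of these shares depends on the exon lengths: with the comprehensive annotation, an alternative chosen after seeing the data, GPC1 held 33.4%, 36.8% and 37.8% and all glypicans 65.5%, 57.5% and 51.3%, and SDC4 stood ahead of SDC2 at Day 113.

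**Figure D3:**
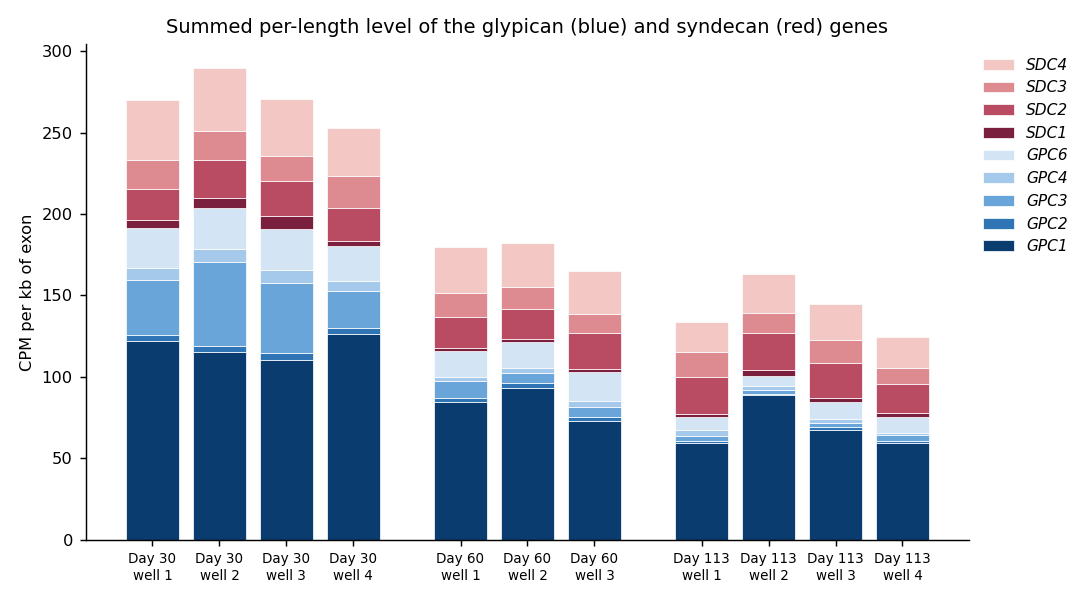
Stacked bars of the per-length level (CPM per kb of exon) of the 9 genes in each of the 11 wells, glypicans in blues and syndecans in reds. GPC1 is the largest block in every well, and the glypican share of the bar goes from 70.2% to 71.2% at Day 30 to 56.6% to 61.8% at Day 113.

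Within Day 30, the wells did not hold the members at one level. Well 4 was the lowest of the 4 for 6 genes (GPC2, GPC3, GPC4, GPC6, SDC1 and SDC4) and the highest for GPC1 and SDC3, while well 2 was the highest for 5 genes. The summed level of 9 epithelial and endoderm markers was also lowest in well 4, at 1583, 1931, 1528 and 1012 CPM in wells 1 to 4. Fibroblast markers (4515, 7713, 6800.0 and 3357 CPM) and endothelial markers (76.0 to 109 CPM) were likewise highest in well 2 and lowest in well 4. Cardiomyocyte markers ran in another order, at 41732, 34139, 30295 and 40914 CPM in wells 1 to 4. At Day 113 the epithelial and endoderm sums of wells 1 to 4 were 68.5, 213, 135 and 112 CPM, where GPC3 was highest in well 4. AFP, a fetal liver and yolk sac protein, averaged 500 CPM at Day 30 and 1.45 CPM at Day 113, and EPCAM, an epithelial adhesion protein, 59.4 and 0.967 CPM.

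The same marker sum ranged over 1012 to 1931 CPM at Day 30, 441 to 579 CPM at Day 60 and 68.5 to 213 CPM at Day 113, beside the falls of GPC3, GPC4 and SDC1. Of its 9 genes, 8 fell by Day 60 and 9 over the whole course, where 5.91% and 17.2% of all genes fell. KRT19 made up most of the sum at Days 60 and 113, averaging 634, 457 and 117 CPM on the 3 days. The sum therefore understates the fall of the list, whose median log2 change by Day 60 was -4.52. EPCAM, for 1, averaged 1.93 CPM at Day 60. Fibroblast markers summed to 3357 to 7713, 2074 to 3575 and 5454 to 13100.1 CPM on the 3 days, mostly COL1A1, COL1A2 and COL3A1. From Day 30 to Day 113, 5 of the 9 fibroblast markers rose and 2 fell, PDGFRA from 144 to 32.3 CPM and LUM from 50.2 to 20.8 CPM. Over all genes, 17.3% rose and 17.2% fell in that comparison. Endothelial markers summed to 76.0 to 109, 49.1 to 79.4 and 221 to 846 CPM, and 8 of 8 rose from Day 30 to Day 113. TNNT2, the cardiac troponin T that defines cardiomyocytes, held 2260.0 to 5816 CPM over all wells. The 9 cardiomyocyte markers summed to 30295 to 41732 CPM at Day 30 and 31979 to 35756 CPM at Day 113. Of these 9, 2 were called higher and 2 lower, where 34.5% of all genes were called. The sum of 6 genes of dividing cells was 346 to 435, 541 to 790 and 208 to 405 CPM. The part of these other cells in the changes of the glypicans and syndecans was not tested.

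**Figure D4:**
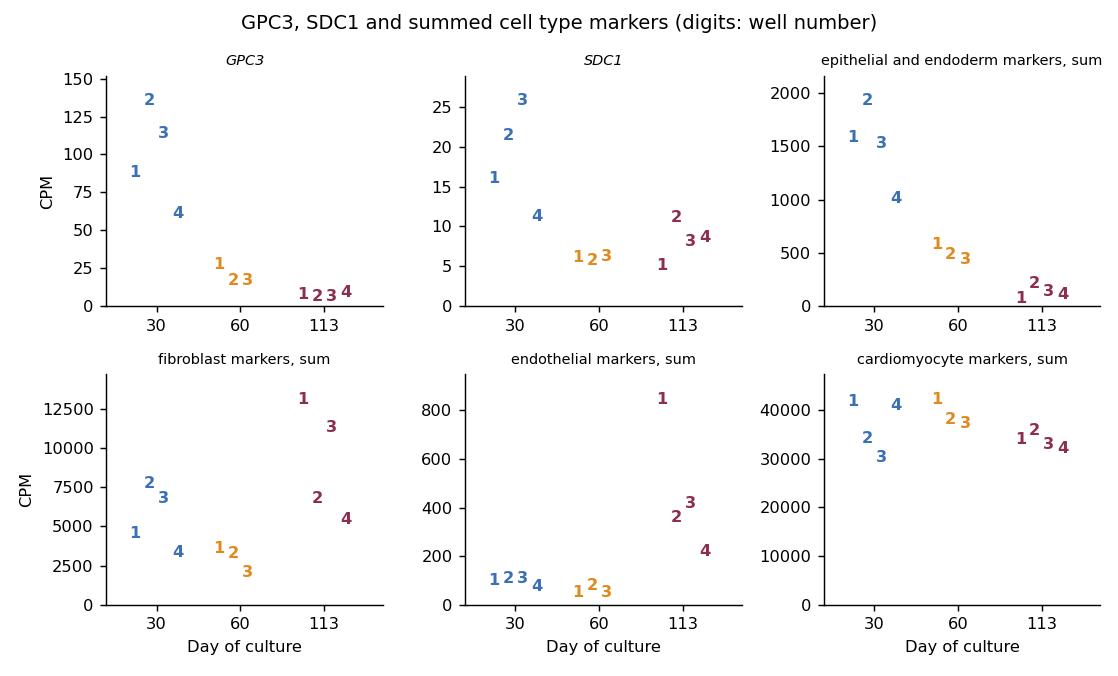
CPM of GPC3 and SDC1 and summed CPM of epithelial and endoderm, fibroblast, endothelial and cardiomyocyte markers, by day; each digit is 1 well at its number, on linear axes from 0. The epithelial and endoderm sum lies at 1012 to 1931 CPM at Day 30 and 68.5 to 213 CPM at Day 113, while the cardiomyocyte sums of those days overlap.

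The genes that build heparan sulfate did not move in one direction over the whole course. Of 33 chain assembly genes 30 were in the table, and between Day 30 and Day 113 5 rose, 8 fell and 17 were not called, with a median log2 change of -0.16, beside 17.3% of all genes higher and 17.2% lower. HS6ST2, which adds 6-O sulfates to the chain, fell 9.03-fold (-3.17 ± 0.15, adjusted p = 7.84e-10), with 34.1 to 44.7 CPM in the Day 30 wells, 13.0 to 18.1 CPM at Day 60 and 4.01 to 4.91 CPM at Day 113. HS3ST4, a 3-O sulfotransferase, went from 6.65 through 14.5 to 1.64 CPM, a fall of 2.04 ± 0.32 in all (adjusted p = 1.28e-04). NDST3, an N-deacetylase and N-sulfotransferase, averaged 1.87 and 0.152 CPM (-3.55 ± 1.09, adjusted p = 0.0192), and this call is lost without Day 30 well 2 or 3 (adjusted p = 0.0664 and 0.0594), while without Day 113 well 3 the change is -4.31.

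Among those that rose, PXYLP1, the phosphatase that acts on the linker xylose, went from 31.8 to 83.8 CPM (1.40 ± 0.14, adjusted p = 2.13e-06). GLCE, the epimerase that forms iduronic acid, went from 21.0 to 34.2 CPM (0.70 ± 0.14, adjusted p = 0.00114). NDST4 went from 1.08 to 2.85 CPM (1.39 ± 0.47, adjusted p = 0.0315), a call lost without Day 30 well 1, 2 or 4 or Day 113 well 4, with adjusted p up to 0.136. By Day 60, 2 of the 30 were called higher and 2 lower, where 10.3% of all genes were called, and the 4 calls became 2 to 10 in the alternatives. Called or not, 25 of the 30 had a log2 change below 0 by Day 60, against 10228 of 19990 over all genes. The list median was then -0.25, beside -0.01 over all genes. After Day 60 10 rose and 5 fell, where 24.0% of all genes were called.

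In the list of 12 genes grouped under chain editing and breakdown, 2 fell over the whole course, where 17.2% of all genes fell and 17.3% rose. They were the heparanase relative HPSE2 (-0.94) and the lysosomal sulfatase IDS (-0.31). HGSNAT, a lysosomal acetyltransferase, was among those that rose (0.29). The median of the list was 0.13. The HGSNAT call (adjusted p = 0.0472) is lost without Day 30 well 1, 3 or 4 or Day 113 well 1, 3 or 4 (up to 0.127) and with RLE (0.0515) or upper-quartile scaling (0.0689), and that of IDS (0.0287) without Day 30 well 1, 2 or 3 or Day 113 well 2 or 4 (up to 0.0798). SULF2, the extracellular 6-O endosulfatase, was not called from Day 30 to Day 113 and is named after its values were seen. It averaged 38.6, 9.24 and 48.5 CPM at Days 30, 60 and 113, a fall of 2.07 (adjusted p = 0.00243) and then a rise of 2.40 (adjusted p = 3.82e-04). The 2 changes differed by 4.47 on the log2 scale (adjusted p = 0.00158).

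Of 14 genes that shed core proteins or control shedding, 5 fell and 2 rose from Day 30 to Day 113, where 17.2% of all genes fell and 17.3% rose. ADAM10, a membrane protease that cleaves syndecan ectodomains, went from 234 to 166 to 145 CPM (-0.69 ± 0.10, adjusted p = 7.57e-05), and its relative ADAM17 changed by -0.47 and the convertase FURIN by -0.60. NOTUM, which cuts the glypican anchor, changed by -1.65 ± 0.46 (adjusted p = 0.0106, and 0.0528 without Day 30 well 2), and MMP9 by -2.95 ± 0.78 (adjusted p = 0.00774). MMP9 was low and uneven, with 1.07 to 11.4 CPM in the Day 30 wells and 0.361 to 1.35 CPM in the Day 113 wells, so these ranges overlap. The 2 that rose were MMP16 (0.82, adjusted p = 0.0244) and TIMP3 (0.29, adjusted p = 0.0186). MMP16 is not called without Day 113 well 1 (0.40, adjusted p = 0.114) or Day 30 well 1, 2 or 3 (adjusted p up to 0.0581), nor TIMP3 without Day 30 well 1 or Day 113 well 3 (adjusted p = 0.0519 and 0.0771). Of 9 partners of the syndecan tail, 2 were called lower and 1 higher, where 34.5% of all genes were called. TIAM1, a Rac exchange factor, fell by 2.02 ± 0.25 from 11.1 to 2.72 CPM (adjusted p = 1.75e-05). PRKCA changed by -0.44 and SYNJ2BP by 0.32, and the other 6 were not called.

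Other core proteins that can carry heparan sulfate, in the matrix or at the membrane, gave 2 lower and 2 higher of 9, beside 17.2% and 17.3% of all genes. AGRN (agrin) fell by 1.15 ± 0.14 from 407 to 184 CPM and COL18A1 by 1.08 ± 0.12 from 1049 to 498 CPM. SPOCK2 rose by 0.97 ± 0.17 from 65.6 to 129 CPM, and TGFBR3, a co-receptor for TGF-beta, changed by 0.47 (adjusted p = 0.0223), a call lost without any one of 4 wells (Day 30 wells 1, 2 and 4 and Day 113 well 3, adjusted p up to 0.0595). HSPG2 (perlecan) stood at 1490.4 and 1105 CPM and was not called (-0.43 ± 0.20, adjusted p = 0.102). The other 4 genes of this list were not called either.

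Among 24 genes of heparin-binding ligands, their receptors and the Hedgehog target GLI1, 14 fell and 5 rose from Day 30 to Day 113, with a median of -0.58, where 17.2% of all genes fell and 17.3% rose. FGFR4 fell by 3.87 ± 0.47 (7.53 to 0.519 CPM), FGFR3 by 2.49 ± 0.38 (20.9 to 3.70 CPM) and FGFR2 by 2.08, while FGFR1 rose by 0.64 ± 0.11. SHH, the Hedgehog ligand, averaged 4.04 CPM at Day 30 and had 0 counts in every Day 113 well, at least 33.6-fold lower against a floor of 3 counts per library. FGF2 rose by 1.64 ± 0.17 (9.12 to 28.5 CPM), FGF7 by 2.19 ± 0.25 (5.39 to 24.6 CPM) and HGF by 2.98 ± 0.59 (0.477 to 3.74 CPM), or by 3.61 without Day 30 well 1.

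**Figure D5:**
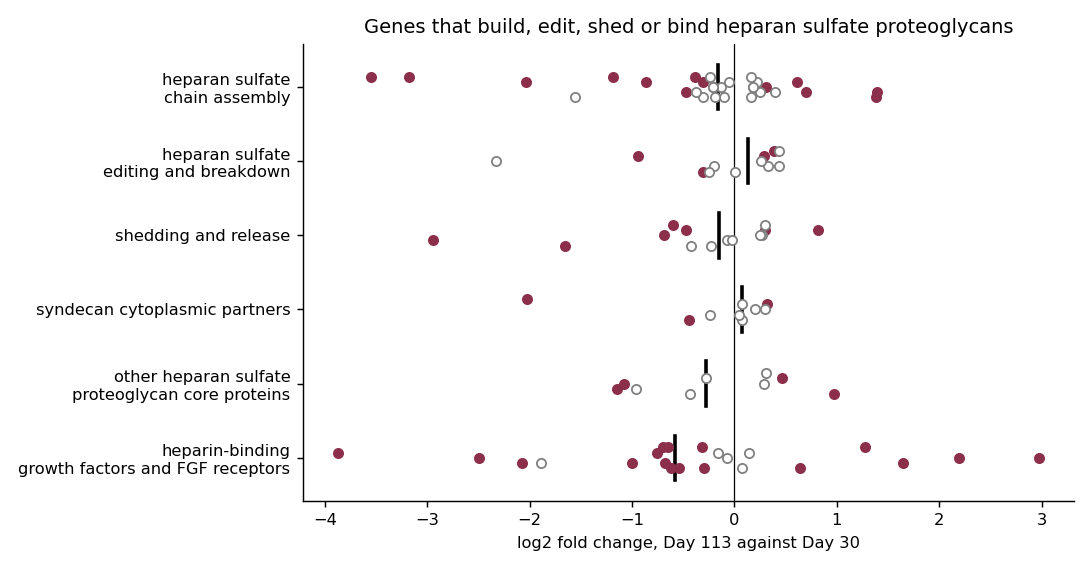
Log2 fold change from Day 30 to Day 113 of each gene (points, filled where the adjusted p is under 0.05) in 6 lists of genes that work with heparan sulfate proteoglycans; black bars are list medians. The medians run from -0.58 for growth factors and receptors to 0.13 for editing and breakdown, and IHH and SHH, with at most 3 counts in each Day 113 well, are not drawn but count in the median.

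Genes with the most similar course were found for the 5 members whose day means spanned at least 1 on the log2 scale, as the smallest root mean square difference of centred log2 CPM over the 11 libraries. GPC3 was closest to HS6ST2 (0.45), APOA1 (0.48) and SPINT1 (0.49), where the median gene stood at 1.63. GPC2 was closest to GPC6 (0.14), then PLEKHG4B (0.15) and SDK1 (0.16), and GPC6 to PLEKHG4B (0.12), SDK1 (0.14) and SLC9A7 (0.15). GPC4 was closest to ADCY7 (0.21), F11R (0.27) and SALL1 (0.27), and SDC1 to LSR (0.26), CDH3 (0.31) and SLC9A3R1 (0.32). Only genes with a mean of at least 10 CPM over the libraries were searched. GPC2 was under that level and so was no candidate for GPC6, although the 2 differed by only 0.14. Profiles were centred but not scaled, so the measure takes in the size of a change as well as its shape. GPC3 changed by -2.29 and then -1.45 in the 2 intervals, where HS6ST2, its closest gene, changed by -1.31 and then -1.87. These are descriptions over shared libraries, with about 10356 genes searched.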

How the data were processed

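Poly(A) RNA of 11 wells of one WTC11 cardiomyocyte differentiation was sequenced in pairs, per the labels' protocols. The authors deposited a table of read counts per gene, made with STAR 2.5.3a, featureCounts 2.0.3 and hg38, per the submitters' processing notes; strand setting and annotation are not given in the sources used here. They also deposited a TPM table. The gene lengths that its TPM values imply varied 31.5- to 1096-fold between libraries for GPC1 relative to the other members, so TPM values were only checked and entered no comparison.

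Counts were tested with edgeR 4.0.16 (R 4.3.3): TMM scaling, filterByExpr with a minimum count of 10, which removed 0 of 19990 genes, and the quasi-likelihood F-test on all 11 libraries, with Benjamini-Hochberg adjustment over all genes in each comparison and a threshold of 0.05. Every gene of the table has at least 35 counts in all, so the table may have been filtered before it was deposited. SE is the log2 change over the square root of F. No molecular identifiers are described, so counts are not independent molecules; 1 count is worth 0.0285 to 0.0401 CPM. Per-length levels used GENCODE release 29 exon unions. Alternatives were DESeq2 1.42.0, limma 3.58.1 (limma-voom), other scalings, filters and thresholds, a replicate block, and leaving out each well. The members and the gene lists were chosen with earlier results of these data known. From each pathway list, up to 3 highest and 3 lowest called genes with at least 1 CPM were named, and others where 5 or fewer were called. One gene of the editing and breakdown list is not reported here. The code was tested on simulated data.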

Additional observations from a re-analysis of the deposited data

Results flagged for a closer look

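GPC6 stood at 137 CPM in Day 30 well 4, apart from 159.6 to 162 CPM in the other Day 30 wells. The gap to the nearest well was 0.891 of the whole range, above Dixon's 95% critical value for 4 wells. It was the only such well in the 18 groups of 4 wells checked over the 9 genes, and chance gives about 1 in 20 groups.

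The log2 change of SDC1 after Day 60 minus that before it was 2.08 (adjusted p = 0.0180, edgeR), with 11.3 to 25.8 CPM at Day 30, 5.67 to 6.21 CPM at Day 60 and 5.14 to 11.1 CPM at Day 113.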

How the results depend on the processing

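Of 587 recomputed log2 changes of the 9 genes, 545 kept their direction and side of the threshold, 25 lost and 12 gained the call, and 5 changed sign. Those that kept both include the setting without a gene filter, which repeats the main fit. The sign changes were SDC2 from Day 30 to Day 113 (0.03 as reported), with upper-quartile scaling (-0.0013) and without Day 30 well 1 (-0.015), Day 113 well 1 (-0.0045) or Day 113 well 2 (-0.0097), and SDC3 after Day 60 without Day 113 well 4 (0.012). With single wells left out these 2 results ranged from -0.015 to 0.10 and from -0.20 to 0.012. Members called by Day 60 (5) became 8 with only the 2 days compared, 3 at adjusted p under 0.01, and 3 to 7 with single wells left out. Members called after Day 60 (4) became 2 at adjusted p under 0.01 and 3 to 5 with wells left out. For the difference between intervals (1) the count was 0 with limma-voom, 0 at adjusted p under 0.01 and 0 to 2 with wells left out. Chain assembly genes called by Day 60 (4) became 7 with DESeq2, 7 with robust dispersion, 8 with only the 2 days and 2 at adjusted p under 0.01, with 2 to 9 over wells left out. After Day 60 their count (15) became 8 at adjusted p under 0.01, and 11 to 15 over wells; for the whole course (13) it became 7, and 9 to 13. Calls over all genes from Day 30 to Day 60 (2060) became 937 at adjusted p under 0.01 and 1220 to 2618 with wells left out. The stricter threshold can only lower a count. Why results moved in the other settings was not tested, and with wells left out counts moved both below and above the main fit.

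Well numbers shared between days carry no stated meaning. Of 10 same-numbered pairs 8 correlated above 0.1 (-0.0172 to 0.332, against -0.242 to 0.235 for other pairs). Most libraries (8 of 11) correlated best with a library of their own number, and a shared origin of same-numbered wells was not tested. The numbers were still not taken as pairs in the main fit, under a rule that needed every pair above 0.1. With the replicate block, 6, 4 and 8 members were called in the early, late and whole comparisons, 2 in the difference between intervals and 10 chain assembly genes by Day 60. SDC4 passed by Day 60 (-0.43, adjusted p = 0.0137), HGSNAT did not pass over the whole course (adjusted p = 0.0536), and the other core proteins called there went from 4 to 7 of 9. All-gene calls also moved between settings. Outside the left-out wells they ran from 937 to 2979 by Day 60 and 4552 to 7461 over the whole course. The block's counts are given without an all-gene share of that fit, so a rise particular to these genes cannot be read from them. With 1 differentiation and 3 or 4 wells a day, changes smaller than those called may have been missed.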
